A study of Mus musculus with 10 samples.

Results

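Fgf21, the gene of a secreted fibroblast growth factor, and 9 genes of the integrated stress response were followed in C2C12 myoblasts given extra miR-27a-3p. The 10 genes (Fgf21, Gdf15, Atf3, Atf4, Atf5, Ddit3, Trib3, Asns, Chac1 and Sesn2) were taken as every probe, controls left out, that carries one of these names in the scanner files, which gave 11 of 55681 probes. The members were selected on their measured differences between mimic and scrambled sequence on these same arrays, so those values are given as a description and support no test. C2C12 is a mouse skeletal myoblast line, cultured here in high-glucose medium with serum and transfected with a cationic lipid reagent. The mimic group (6 samples) received a miR-27a-3p mimic and the control group (4 samples) a scrambled sequence, each at 150 nM, with RNA taken after 72 h and an estimated transfection efficiency of 60%, so that the RNA includes cells that were not transfected. No untransfected cells were analysed here.

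The mimic supplies a mature microRNA, whose sequence is shown with its seed, bases 2 to 8, in capitals because the seed is the part that pairs with target transcripts. The sequence is that of the mouse gene Mir27a in RefSeq (GRCm38.p6, chr8:84208727-84208747, + strand).
mmu-miR-27a-3p: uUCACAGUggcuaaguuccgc

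The integrated stress response starts when a kinase that senses unfolded protein, missing amino acids, double-stranded RNA or haem deficiency phosphorylates the translation factor eIF2. General protein synthesis then slows, while the transcription factor ATF4 is translated better and switches on genes of amino acid supply, redox balance and, through CHOP (the product of Ddit3), cell death. FGF21 and GDF15 are secreted proteins that muscle releases when mitochondria or the endoplasmic reticulum are stressed, and they serve as blood markers of mitochondrial muscle disease. ATF4 is controlled largely through translation of its mRNA, so transcript levels of its target genes are the usual readout on an array.

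The 10 scanner files held 2 scans each of 5 positions on 1 slide, and averaging the files of a position left n = 3 arrays with the mimic and n = 2 with the scrambled sequence. A level is the log2 signal of a probe relative to the 75th percentile of the 13029 probes well above background in every file, and a difference is mimic minus scrambled sequence. Spots well above background made up 27.04% to 35.3% of a file, and all 11 probes of the 10 genes were so in all 10 files. Of 7 myoblast markers, Myod1, Des, Cdh15, Itga7, Chrna1 and Myog were above background in every file, and Myf5 in 1. All 6 adipocyte markers were above background in none, as were the hepatocyte markers Alb, Apoa1, Serpina1a and Fgb (Ttr reached it in 1 file). The leukocyte marker Ptprc and the macrophage markers Adgre1 and Lyz2 were above it in none, whereas Cd68 and Cd14 were in all and the macrophage receptor gene Csf1r in 9 of 10. Among 5 endothelial markers only Kdr was. With limma, 676 of 13138 genes and transcripts (5.15%) passed an adjusted p of 0.05, the threshold behind every mention of a call. That number was 47, 79 and 138 without mimic array 1, 2 and 3, and 4352 and 571 without scrambled array 1 and 2.

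Fgf21 was 4.94-fold lower after the mimic. Its level was -1.56, -1.43 and -1.49 on the mimic arrays, against 0.83 and 0.80 on the scrambled arrays. The groups were 2.22 apart at their closest, while the mimic arrays spanned 0.13 and the scrambled arrays lay 0.03 apart. Mean levels were -1.49 ± 0.06 (SD, n = 3) with the mimic and 0.81 ± 0.02 (SD, n = 2) with the scrambled sequence. The difference was -2.30 ± 0.14 (SE, log2, 95% interval -2.64 to -1.97), which leaves the mimic level at 20.3% of the scrambled level. In background-subtracted signal units before scaling, the files ranged from 849 to 1124 with a median of 975 with the mimic, and from 3448 to 4761 with a median of 3835 with the scrambled sequence. No mimic file came near the lowest scrambled file.

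Of all genes and transcripts tested, 30 had a difference as low as that of Fgf21 or lower, Fgf21 included. The direction was the same in every setting tried. The difference was -2.33 in the first scan and -2.28 in the second, and it was -2.33 to -2.27 when any 1 array was left out. In bulk RNA, fewer expressing cells and less transcript per cell cannot be told apart.

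The value of Fgf21 rests on 1 spot per array. Its probe (mm9, chromosome 7, 52869305 to 52869364, minus strand) has a GC content of 20%, against a median of 41.7% over the probes tested, and a stretch of 16 bases without G or C. The 7 other tested probes with a GC content as low or lower had differences of -0.30 to 1.17 with a median of 0.14. With the dependence on GC content removed, a setting chosen after seeing the data, Fgf21 was at -2.48. An effect particular to this probe was not tested.

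**Figure D1:**
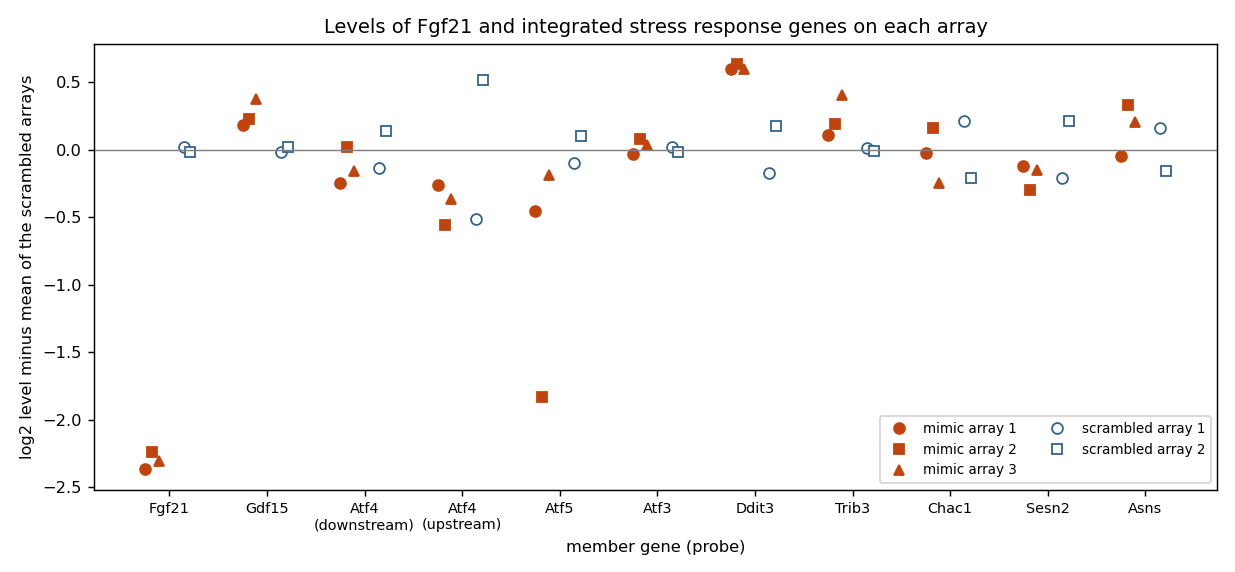
Levels of the 11 probes on each array, as log2 level minus the mean of the scrambled arrays for that probe (y axis), with filled symbols for the 3 mimic arrays and open symbols for the 2 scrambled arrays, 1 point per array. The mimic arrays lie far below 0 and close together for Fgf21 (mean difference -2.30) and above it for Ddit3 (0.61), mimic array 2 alone is far below the rest for Atf5, and the scrambled arrays are farthest apart at the upstream Atf4 probe.

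Gdf15 encodes the other secreted factor, a distant relative of the TGF-beta family that acts on the brain stem. Its probe lies on chromosome 8 (mm9, 73153293 to 73153352, minus strand). Its level was 1.01, 1.05 and 1.20 on the mimic arrays, against 0.81 and 0.84 on the scrambled arrays. Every mimic array was above both scrambled arrays, by a margin smaller than the spread of the mimic arrays. The difference was 0.26 ± 0.14 (SE, 95% interval -0.09 to 0.61), of opposite sign to that of Fgf21.

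Atf4, the central transcription factor of the response, was measured by 2 probes that lie 1203 bases apart on the plus strand of chromosome 15 in mm9 (80086639 to 80086698 and 80087902 to 80087961). At the downstream probe, which had the higher signal and represented the gene in the fit, the level was 3.82, 4.09 and 3.91 on the mimic arrays, against 3.93 and 4.21 on the scrambled arrays. These values overlap, with a difference of -0.13 ± 0.17 (SE, 95% interval -0.54 to 0.28). At the upstream probe the level was -0.99, -1.29 and -1.09 with the mimic, against -1.25 and -0.21 with the scrambled sequence. There the scrambled arrays were 1.04 apart, against 0.27 at the downstream probe, and the difference of -0.39 ± 0.32 (SE) lies within that gap. The sign at the downstream probe was opposite in 4 of 19 alternative settings.

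Atf5, a related factor that drives the mitochondrial unfolded protein response, had the lowest difference after Fgf21 but the widest spread. Its probe lies on chromosome 7 (mm9, 52067627 to 52067686, minus strand). Its level was 2.19, 0.80 and 2.45 on the mimic arrays, against 2.53 and 2.74 on the scrambled arrays. All mimic arrays were lower, and mimic array 2 stood apart from the others in both of its scans (0.97 and 0.63). The difference was -0.82 ± 0.49 (SE, 95% interval -2.03 to 0.38). Without mimic array 2 it was -0.32.

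Atf3, a stress-induced factor that ATF4 and other pathways switch on, was level across the arrays at its probe on chromosome 1 (mm9, 192994547 to 192994606, minus strand). It stood at -1.27, -1.16 and -1.20 with the mimic, against -1.22 and -1.25 with the scrambled sequence. The groups overlap, and the difference was 0.03 ± 0.14 (SE, 95% interval -0.31 to 0.36).

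Ddit3 encodes CHOP, the factor that links a prolonged response to cell death, and was the member with the highest difference. Its level was -0.53, -0.49 and -0.52 on the mimic arrays, against -1.30 and -0.95 on the scrambled arrays. The mimic arrays were close to each other (SD 0.02) and above both scrambled arrays. The difference was 0.61 ± 0.16 (SE, 95% interval 0.21 to 1.005), or 1.52-fold higher. Over 19 alternative settings it stayed between 0.43 and 0.80. Ddit3 was not called with the settings used throughout, but it was called in 7 of the 19 alternatives. Those calls are a description, since the members were selected on these values. The probe spans 304 bases of chromosome 10 in mm9 (126732518 to 126732821, plus strand), so its bases are not contiguous in the genome.

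The probes of Trib3 (152163161 to 152163220, minus strand) and Chac1 (119179990 to 119180049, plus strand) both lie on chromosome 2 in mm9. Trib3, a pseudokinase that is switched on by ATF4 and CHOP and feeds back on them, was at 1.78, 1.86 and 2.08 on the mimic arrays, against 1.69 and 1.66 on the scrambled arrays. The groups do not overlap, and the difference was 0.23 ± 0.15 (SE, 95% interval -0.15 to 0.61). Chac1, an enzyme that degrades glutathione and is a sensitive target of the ATF4 and CHOP pathway, was at 2.75, 2.93 and 2.52 with the mimic, against 2.98 and 2.56 with the scrambled sequence. Its groups overlap almost fully (difference -0.04 ± 0.21, 95% interval -0.54 to 0.47).

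The probe of Sesn2 lies on chromosome 4 (mm9, 132048858 to 132048917, minus strand) and that of Asns on chromosome 6 (7625171 to 7625228, minus strand). Sesn2, a leucine sensor and brake on mTORC1 signalling, was at -1.13, -1.31 and -1.16 on the mimic arrays, against -1.22 and -0.80 on the scrambled arrays. Its groups overlap, with a difference of -0.19 ± 0.18 (SE, 95% interval -0.63 to 0.25), and the scrambled arrays were farther apart than the mimic arrays. Asns makes asparagine and is a standard target gene of ATF4. Its level was 2.15, 2.53 and 2.40 with the mimic, against 2.36 and 2.03 with the scrambled sequence, which overlap (difference 0.16 ± 0.19, 95% interval -0.30 to 0.62).

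The fit over all genes called 1 of the 10 members, Fgf21, lower with the mimic, beside 2.34% of all genes tested that were called lower, 2.8% called higher and 5.15% called in either direction. The other 9 had differences from -0.82 to 0.61 with a median of 0.03, 5 of them positive and 4 negative, where the median over all genes was -0.05. The groups of arrays did not overlap for 5 of the 10 members, against 45.6% of all genes. Since the members were selected on these values, nothing is read from these counts, which are no test of the members.

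**Figure D2:**
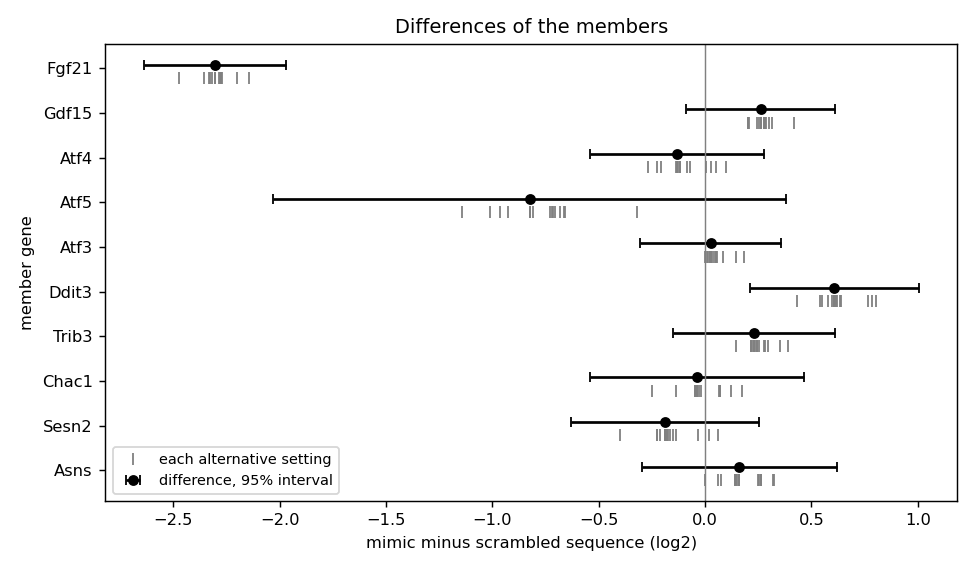
Difference of each member between mimic and scrambled sequence (x axis, log2), with the black point and bar giving the estimate and its 95% interval from the limma fit (3 mimic and 2 scrambled arrays) and each grey tick 1 of 19 alternative settings. Fgf21 lies at -2.30 with ticks from -2.48 to -2.14, Ddit3 lies farthest to the right at 0.61, and Atf5 has the widest interval. The bars describe the spread and are no test, since the members were selected on these differences.

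The promoters in which the letters of the ATF4 element were found are shown, since these letters occur in Fgf21 and in other members. ATF4 binds as a partner of C/EBP factors to a composite element, searched for here as TGATGNAA on either strand (TTNCATCA where it lies on the other strand). In the 250 bases before the start of each gene in RefSeq, 4 of the 10 members held it, 1 match each in Fgf21, Atf3, Chac1 and Asns. Counted by window, 4 of the 12 windows of the members held it, and 3.45% of 32851 windows of that length did. The match began 139 bases before the start in Fgf21, 110 in Atf3, 193 in Chac1 and 23 in Asns. The letters were TTGCATCA in the first 3 genes and TGATGAAA in Asns. Their share is a description, since the members were picked as a pathway. A match is not a binding site, and its absence in the other members says only that the letters are not in these windows. Capitals mark the match, and each sequence runs 5′ to 3′ on the strand of the gene (GRCm38.p6).
Fgf21 promoter, chr7:45615491-45615740, - strand: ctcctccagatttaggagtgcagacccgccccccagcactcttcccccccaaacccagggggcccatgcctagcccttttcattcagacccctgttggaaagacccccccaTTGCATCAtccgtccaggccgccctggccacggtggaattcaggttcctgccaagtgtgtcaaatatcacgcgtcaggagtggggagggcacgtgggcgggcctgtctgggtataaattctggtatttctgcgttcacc
Atf3 promoter, chr1:191183334-191183583, - strand: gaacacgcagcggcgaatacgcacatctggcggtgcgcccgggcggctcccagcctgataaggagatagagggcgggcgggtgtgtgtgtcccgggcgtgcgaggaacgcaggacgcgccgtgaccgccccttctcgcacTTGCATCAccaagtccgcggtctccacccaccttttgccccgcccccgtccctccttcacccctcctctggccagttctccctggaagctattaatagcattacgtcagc
Chac1 promoter, chr2:119350992-119351241, + strand: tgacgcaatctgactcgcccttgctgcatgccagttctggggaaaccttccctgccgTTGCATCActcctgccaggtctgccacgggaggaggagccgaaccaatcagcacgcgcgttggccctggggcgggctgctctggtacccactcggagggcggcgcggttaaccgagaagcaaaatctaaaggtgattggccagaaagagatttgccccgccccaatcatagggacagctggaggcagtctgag
Asns promoter, chr6:7693210-7693459, - strand: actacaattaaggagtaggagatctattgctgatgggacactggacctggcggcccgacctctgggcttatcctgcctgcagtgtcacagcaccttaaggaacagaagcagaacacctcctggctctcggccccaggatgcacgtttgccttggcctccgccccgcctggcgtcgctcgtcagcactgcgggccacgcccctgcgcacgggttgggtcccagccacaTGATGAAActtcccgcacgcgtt
Beside these matches stood differences of -2.30 for Fgf21, 0.03 for Atf3, -0.04 for Chac1 and 0.16 for Asns.

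Other genes of the pathway were read from 10 lists with 136 tested genes, chosen with earlier results of these arrays known. Of these, 6 passed the threshold (4.41%, against 5.15% of all genes), 4 higher and 2 lower, and 12 higher and 17 lower had an unadjusted p under 0.05 (21.3%, against 25.3% of all genes, of which 11.2% higher and 14.1% lower). The median difference over the lists was -0.07, against -0.05 over all genes. The count rested on single arrays: it was 1 without mimic array 1, 2 or 3, where only Perp remained called, 49 without scrambled array 1 and 2 without scrambled array 2. Of the 6 calls, 2 (Stc2 and Perp) passed the filter on dim probes through the mimic files alone, so the filter favoured a difference in them.

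The upstream part of the response held no called gene with the settings used throughout, and 5 without scrambled array 1. Of 18 tested genes for eIF2 kinases, eIF2 and eIF2B subunits and the phosphatase regulators, 0 passed limma's threshold, and 1 higher and 2 lower had an unadjusted p under 0.05 (median -0.17). The 18 also include Eif2a, Gcn1, Impact and Dele1. The smallest p belonged to Eif2ak3, which encodes PERK, the kinase that senses unfolded protein in the endoplasmic reticulum. It was at -2.96, -2.99 and -2.92 on the mimic arrays, against -3.58 and -4.16 on the scrambled arrays, with a difference of 0.92 ± 0.20 (SE, adjusted p = 0.061), and it passed the threshold in 6 of 19 alternative settings. All mimic arrays were above both scrambled arrays, which were themselves far apart. The other kinases, named after their values were seen, also missed the threshold. The double-stranded RNA sensor Eif2ak2 was at -0.30 ± 0.16 (SE, adjusted p = 0.286), the amino acid sensor Eif2ak4 at 0.23 ± 0.20 (adjusted p = 0.493) and the haem-regulated kinase Eif2ak1 at -0.85 ± 0.35 (adjusted p = 0.201).

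Genes of amino acid supply, the classical output of ATF4, held 1 call with the settings used throughout, and more without scrambled array 1. Negative differences made up 9 of 11, 7 of 7 and 14 of 19 in the 3 lists that follow, against 54.8% of all genes, and this contrast was not tested. Counts of signs depend on the scaling. With the percentile over all probes, the median difference of all genes was 0.11 in place of -0.05. Of 11 tested enzymes of amino acid synthesis and one-carbon metabolism, 0 passed limma's threshold and 1 lower had an unadjusted p under 0.05 (median -0.34). Gpt2, the mitochondrial alanine transaminase, was at -0.95 ± 0.22 (SE, adjusted p = 0.066), lower on all mimic arrays, and passed in 6 of 19 alternative settings. Of 7 tested amino acid transporters, 0 passed and 2 lower had an unadjusted p under 0.05 (median -0.36). Slc7a5, a subunit of the leucine transporter, was at -1.62, -1.36 and -1.44 with the mimic, against -1.16 and -0.41 with the scrambled sequence (difference -0.68 ± 0.25, SE, adjusted p = 0.162). The mimic arrays were lower, but leaving out scrambled array 1 gave -1.06 and leaving out scrambled array 2 gave -0.31. Slc7a11, the cystine transporter, was above background in no file. Of 19 tested cytosolic aminoacyl-tRNA synthetases, 1 fell, 0 rose and 18 did not pass (median -0.10). In this list 4 lower and 0 higher had an unadjusted limma p under 0.05, where 14.1% of all genes were lower at that level. Farsa, a subunit of the phenylalanine enzyme, fell by 0.67 ± 0.13 (SE, adjusted p = 0.047), its levels being -1.38, -1.29 and -1.31 with the mimic against -0.68 and -0.65 with the scrambled sequence. Its call was lost in 11 of 19 alternative settings, and its difference ranged from -0.71 to -0.51.

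Among other reported targets of ATF4 and CHOP, 3 of 21 tested genes rose, 0 fell and 18 did not pass (median 0.22), where 2.8% of all genes were called higher. No call was left in this list when any 1 mimic array was left out. Without scrambled array 1, calls in this list went in both directions. At an unadjusted p under 0.05 there were 6 higher and 1 lower. Stc2, a secreted glycoprotein induced by stress, was detected over background with the mimic (6 of 6 files) but not with the scrambled sequence (0 of 4), and it was at least 1.94-fold higher. It was tested only because of its mimic files, so its call is not independent of the filter. Its bound sets the mimic mean against, on each scrambled array, the lowest signal that counted as above background or the probe's own, whichever was higher. Vldlr, a lipoprotein receptor, rose by 1.05 ± 0.20 (SE, adjusted p = 0.044), its levels being -1.89, -2.11 and -1.87 with the mimic against -2.75 and -3.26 with the scrambled sequence. Ndrg1, a gene that also responds to hypoxia and growth arrest, rose by 1.19 ± 0.23 (SE, adjusted p = 0.045), its levels being -0.09, -0.12 and 0.42 with the mimic against -1.31 and -0.93 with the scrambled sequence. The calls of Vldlr and Ndrg1 were each lost in 8 of 19 alternative settings and that of Stc2 in 5 of 18, with the same direction throughout. These 3 genes went the opposite way to Fgf21.

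Chaperone lists held no call in either compartment, except without scrambled array 1 and with the 10 files as separate arrays. For the endoplasmic reticulum, 0 of 21 tested genes passed limma's threshold and 2 higher had an unadjusted p under 0.05 (median 0.09). Sdf2l1, a chaperone cofactor, was at 0.64 ± 0.18 (SE, adjusted p = 0.104), with 0.87 without scrambled array 1. Hspa5, the main chaperone BiP and the textbook sign of unfolded protein there, was chosen knowing its value and stood at 2.07, 1.99 and 2.07 with the mimic, against 1.85 and 1.67 with the scrambled sequence (difference 0.28 ± 0.14, SE, adjusted p = 0.262). For mitochondria, 0 of 11 passed and 1 lower had an unadjusted p under 0.05 (median -0.10). Trap1, a mitochondrial chaperone of the HSP90 family, was at -0.57 ± 0.22 (SE, adjusted p = 0.184), with -0.92 without scrambled array 1 and -0.23 without scrambled array 2.

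FGF21 signals through FGF receptors together with the co-receptor beta-Klotho. Klb, the gene of beta-Klotho, was above background in no file, and neither were Fgfr2, Fgfr3, Kl, or the GDF15 receptor genes Gfral and Ret. The receptor gene Fgfr1, named after its value was seen, was above background in all 10 files. Its difference was -0.53 ± 0.15 (SE, limma adjusted p = 0.0997), and it was not called. The list of receptors, factors known to act on Fgf21 and related FGF genes held 8 tested genes, Fgf23 among them. Of these, 1 fell, 0 rose and 7 did not pass, with 4 lower at an unadjusted p under 0.05 (median -0.40). Fgfr4, a receptor best known in liver and in muscle regeneration, fell by 0.74 ± 0.14 (SE, adjusted p = 0.040), its levels being -4.54, -4.56 and -4.65 with the mimic against -3.91 and -3.77 with the scrambled sequence. It was above background in 4 of 6 mimic files and all 4 scrambled files, and its call was lost in 12 of 18 alternative settings, among them each scan alone. Ppara and Pparg, nuclear receptors that switch on Fgf21 in liver and fat, were named after their values were seen and stood at -0.28 ± 0.17 and -0.54 ± 0.14 (SE, adjusted p = 0.338 and 0.088).

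Genes of 2 neighbouring responses were read because Gdf15, Atf3 and Sesn2 also respond to p53 and because transfected RNA can activate eIF2 kinases. Of 15 tested genes, p53 targets and Trp53 itself, 1 rose, 0 fell and 14 did not pass (median 0.23). Without scrambled array 1, further genes of this list were called, in both directions. At an unadjusted p under 0.05 there were 3 higher and 2 lower. Perp, a membrane protein of cell junctions that is also a p53 target, was at least 1.60-fold higher and was detected over background in 4 of 6 files with the mimic, against 0 of 4 with the scrambled sequence. As with Stc2, its call is not independent of the filter, and without the filter neither was called. Of 18 genes of the interferon and double-stranded RNA response, 5 were tested and 12 were above background in no file. Of those tested, 0 passed limma's threshold and 0 had an unadjusted p under 0.05 (median 0.43). Calls appeared in this list only without scrambled array 1 and with the 10 files as separate arrays. Stat2, a mediator of the interferon signal, was at 0.67 ± 0.27 (SE, adjusted p = 0.200), with 1.07 without scrambled array 1 and 0.27 without scrambled array 2.

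**Figure D3:**
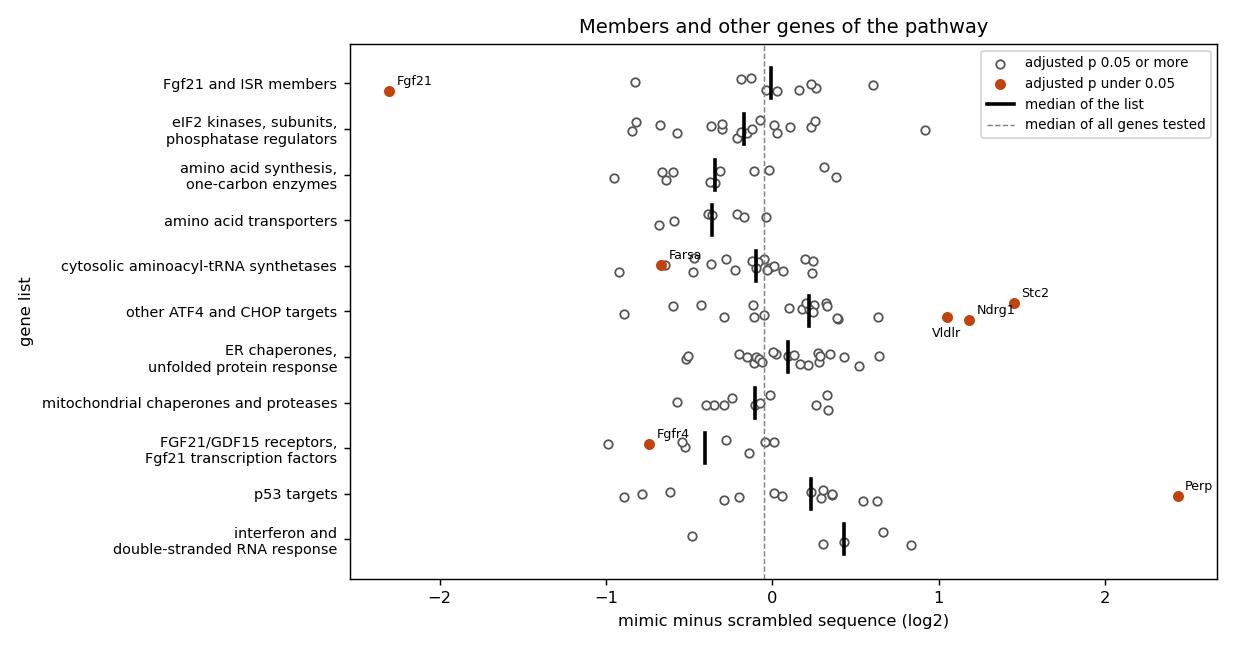
Difference between mimic and scrambled sequence (x axis, log2) of every tested gene, 1 point each, for the members and the 10 lists, with filled points past an adjusted p of 0.05, black bars at the median of each list and a dashed line at the median of all genes. Fgf21 stands alone at -2.30 among the members, and 4 filled points to the right (Stc2, Vldlr, Ndrg1, Perp) and 2 to the left (Farsa, Fgfr4) are the calls in the lists, of which Stc2 and Perp have only a bound.

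Among 878 named genes above background in all files and with at least 50% of the range of Fgf21, the 6 with the highest Pearson correlation over the 5 arrays were Pdgfrb, Ldb3, Tnnt1, Pdlim3, Enpp1 and Ermp1 (r = 0.998 to 0.999). The 5 arrays fall into 2 groups and share a slide, so r ranks genes by likeness only, and no test is attached. Pdgfrb encodes a growth factor receptor of mesenchymal cells, Ldb3 and Pdlim3 are proteins of the muscle Z-disc, and Tnnt1 is the slow troponin T. Enpp1 makes pyrophosphate at the cell surface and Ermp1 is a protease of the endoplasmic reticulum. Pdlim3 was nearest in size, with 0.37, 0.38 and 0.29 on the mimic arrays, against 2.49 and 2.50 on the scrambled arrays (difference -2.15 ± 0.13, SE). The other 5 had differences of -1.41 to -1.14. Low values with the mimic follow from choosing genes that resemble Fgf21.

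The summed linear level of the 7 myoblast markers was 20.8 to 22.8 on the mimic arrays and 31.3 to 41.2 on the scrambled arrays. This sum leans most on Itga7 and Chrna1, the markers with the highest levels. Of the 6 tested markers, Myog was called lower and 5 were not called, beside 2.34% of all genes called lower. All 6 differences were negative with an unadjusted limma p under 0.05, where 14.1% of all genes were lower at that level. Myog, the factor that starts terminal differentiation, fell by 2.10 ± 0.21 (SE, adjusted p = 0.0092), its levels being 0.32, 0.46 and 0.50 with the mimic against 2.22 and 2.83 with the scrambled sequence. The summed level of 7 markers of fibroblasts and smooth muscle was 14.1 to 15.9 on the mimic arrays and 16.9 to 17.4 on the scrambled arrays. Thy1 and Tcf21 were above background in no file. Of the 5 tested markers, Tagln and Pdgfra were called lower, beside 2.34% of all genes. Pdgfra was above background in only 1 of 6 mimic and 3 of 4 scrambled files. The other markers were not called, with differences of -0.71 ± 0.16 for Acta2, 0.48 ± 0.19 for Dcn and 0.19 ± 0.40 for Lum (SE). The part of these shifts in the value of Fgf21 was not tested. The scrambled arrays differed more for Myog than for Fgf21.

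**Figure D4:**
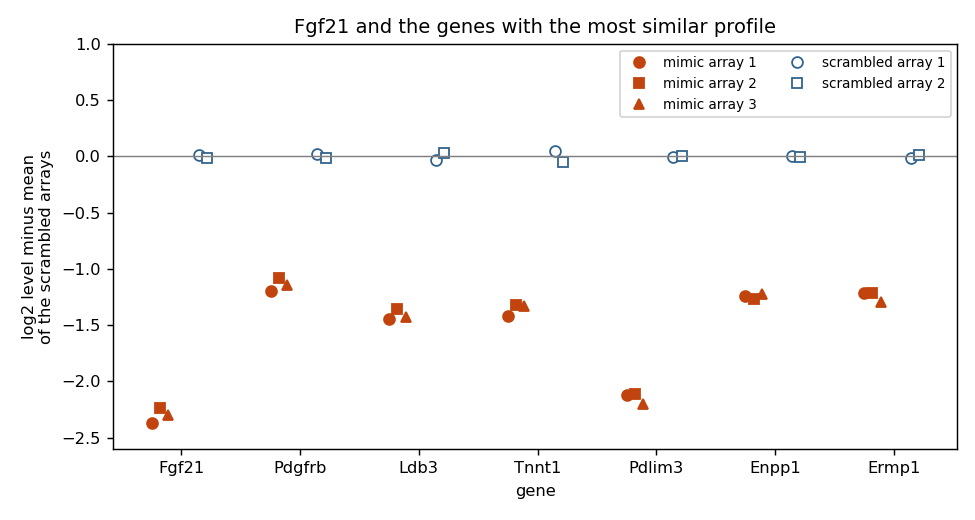
Levels of Fgf21 and of the 6 genes with the highest correlation with it, as log2 level minus the mean of the scrambled arrays for that gene (y axis), 1 point per array, filled for the 3 mimic and open for the 2 scrambled arrays. In all 7 genes the mimic arrays lie together and below the scrambled arrays, with Pdlim3 nearest to Fgf21.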

How the data were processed

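The deposited scanner files hold linear intensity per spot. Per the file headers, Agilent Feature Extraction 12.0.0.7 subtracted background and detrended it, with probe positions on mm9 (the submitters' processing notes name 10.7.3.1). Outlier and control spots were left out, spots of a probe averaged as log2, and each file's 75th percentile over probes above background in all files subtracted. Probes above background in at least 4 of 10 files were kept, and each gene was represented by its brightest probe, which left 13138 genes and transcripts after 50 with a missing value. Files that the headers place on 1 array position were averaged as 1 replicate, although the labels describe separate transfections for each sample, so p-values measure the spread between 5 arrays, which may be technical. The comparison used lmFit and eBayes of limma 3.58.1 (R 4.3.3) with Benjamini-Hochberg adjustment over all genes, tested on simulated data. The authors' deposited value table, also linear intensity, served as an alternative, with its scale and order matched to the scanner signal (Spearman correlation 0.9987 or more) and its rule for empty cells unknown. By rule, named genes are the members, the called genes of each list (at most 4) or else its smallest p, and the 6 genes most like Fgf21. Further genes and the cell type markers were named outside this rule, some of them after their values were seen. Names of other genes follow the RefSeq table of GRCm38.p6. The members and lists were chosen with earlier results of these data known. Replicate numbers were not used as pairs in the main fit. Correlations of deviations by replicate number were -0.35 to 0.38, and with 5 arrays they cannot decide whether samples were paired. Precision is limited by the number of arrays.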

Additional observations from a re-analysis of the deposited data

How the results depend on the processing

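In all 19 alternatives the difference of Fgf21 was negative (-2.48 to -2.14). The number of called members, given as a description because they were selected on these values, was 0 without a filter on dim probes (34474 genes and transcripts tested), 2 with the percentile over all probes, 3 with the 10 files as separate arrays, 2 with the replicate block, 2 with blocks for scan (fixed) and array position (random), 2 with probe GC content corrected (chosen after seeing the data) and 1 to 2 when an array was left out. The number of called genes, 676, was 17 without the filter, 4512 with 10 separate files, 1950 with the replicate block and 1459 with scan and position as blocks, and 47 to 4352 when an array was left out. The number called in the pathway lists, 6, was 0 without the filter, 54 with 10 separate files, 16 with the replicate block, 18 with scan and position as blocks, 2 in the deposited value table, 3 with quantile normalization, 3 in the second scan alone, and 1 to 49 when an array was left out. The causes were not tested, except that 10 separate files count each array position as 2 samples. With the percentile over all probes the median difference of all genes was 0.11 in place of -0.05, and the lower share of calls was 31.75% in place of 45.6%. That share was 36.8% with quantile normalization and 56.3% with 10 separate files. The signs of Atf4, Chac1, Sesn2 and Asns, none of them called, were opposite in 4, 5, 2 and 1 alternatives. Signal near background limits Stc2, Perp and Fgfr4.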
